A study of Mus musculus with 10 samples.

Results

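The mRNA of 10 cation channels was followed in islets of mice with and without FIT2 in β cells: 9 channels of the transient receptor potential (TRP) superfamily in the wider sense, Trpc1, Trpc4, Trpm2, Trpm3, Trpm4, Trpm7, Trpv2, Trpv4 and Pkd2, and the mucolipin Mcoln1. They were taken by symbol from the deposited table of 47340 genes, and each of the 10 symbols matched 1 row. The control mice (FL, 5 mice, titled Flox and labelled wild type by genotype) carry loxP sites at both copies of the FIT2 gene, Fitm2. The KO mice (beta-FIT2KO, 5 mice) carry the same floxed alleles and also Cre recombinase under the rat insulin promoter (an Ins2-cre transgene), which drives deletion in β cells. All were male, aged 12 wk and fed chow, and the islets recovered overnight in culture before RNA was taken. No library is from mice with Cre alone, so the effects of Cre and of FIT2 loss cannot be told apart here.

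TRP channels are tetramers of subunits with a shared six-helix membrane fold, and most let Na+ and Ca2+ into the cytosol. TRPC channels open downstream of phospholipase C, TRPM channels answer to signals such as cytosolic Ca2+ or ADP-ribose, TRPV channels to heat, stretch or osmotic change, and polycystin-2 (Pkd2) works with polycystin-1 at cilia and at the endoplasmic reticulum (ER). Mucolipin-1 (Mcoln1) releases Ca2+ from lysosomes. In β cells, inward currents through such channels add to the depolarization that follows closure of KATP channels, and so bear on Ca2+ entry and insulin release.

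Values are FPKM, fragments counted per length of exon and per sequencing depth, which can be compared between genes. The FPKM of a library summed to 646233 to 675470 in FL and 627084 to 653292 in KO. The step by which 1 read moved the FPKM of long genes with 1 transcript gave an estimated depth of 22300000 to 53700000 reads per FL library and 33800000 to 45800000 reads per KO library. Fitm2 was at 16.9, 30.5, 16.5, 37.1 and 15.5 FPKM in FL mice 1 to 5 and at 4.56, 4.30, 7.75, 9.13 and 8.998 FPKM in KO mice 1 to 5. Of the defining hormone markers, Ins1, Ins2, Iapp and Gcg are listed at 0 in all 10 libraries (a value that may stand for a failed estimate), while the β cell genes Slc2a2, Pdx1, Mafa and Slc30a8 are present. In bulk islets, fewer cells of a type and less RNA per cell cannot be told apart.

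Mcoln1 was the most abundant of the 10 mRNAs and Trpv4 the least. In FL islets the order of the mean FPKM was Mcoln1 (51.1), Pkd2 (15.4), Trpc1 (14.1), Trpm7 (11.5), Trpm2 (9.92), Trpm4 (4.67), Trpm3 (2.75), Trpc4 (2.68), Trpv2 (0.819) and Trpv4 (0.121). Overlapping ranges were seen between neighbours in that order for Pkd2 and Trpc1, Trpm7 and Trpm2, and Trpm3 and Trpc4. In KO islets Trpc4 (0.449) stood below Trpv2 (1.06), without overlap between these genes, whereas in FL islets every mouse had more Trpc4 than Trpv2. Mcoln1 held 45.2% of the summed FPKM of the 10 genes in FL islets and 48.3% in KO islets, as means over 5 mice. The sum of the 10 was 113 ± 4.66 FPKM for FL mice, compared with 101 ± 4.92 FPKM for KO mice (SD, n = 5), that is 10.5% less in KO. The lowest FL sum (107.08 FPKM) lay just above the highest KO sum (106.97 FPKM), and the difference was −6.47% after median ratio and −6.23% after upper quartile rescaling of the libraries.

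**Figure D1:**
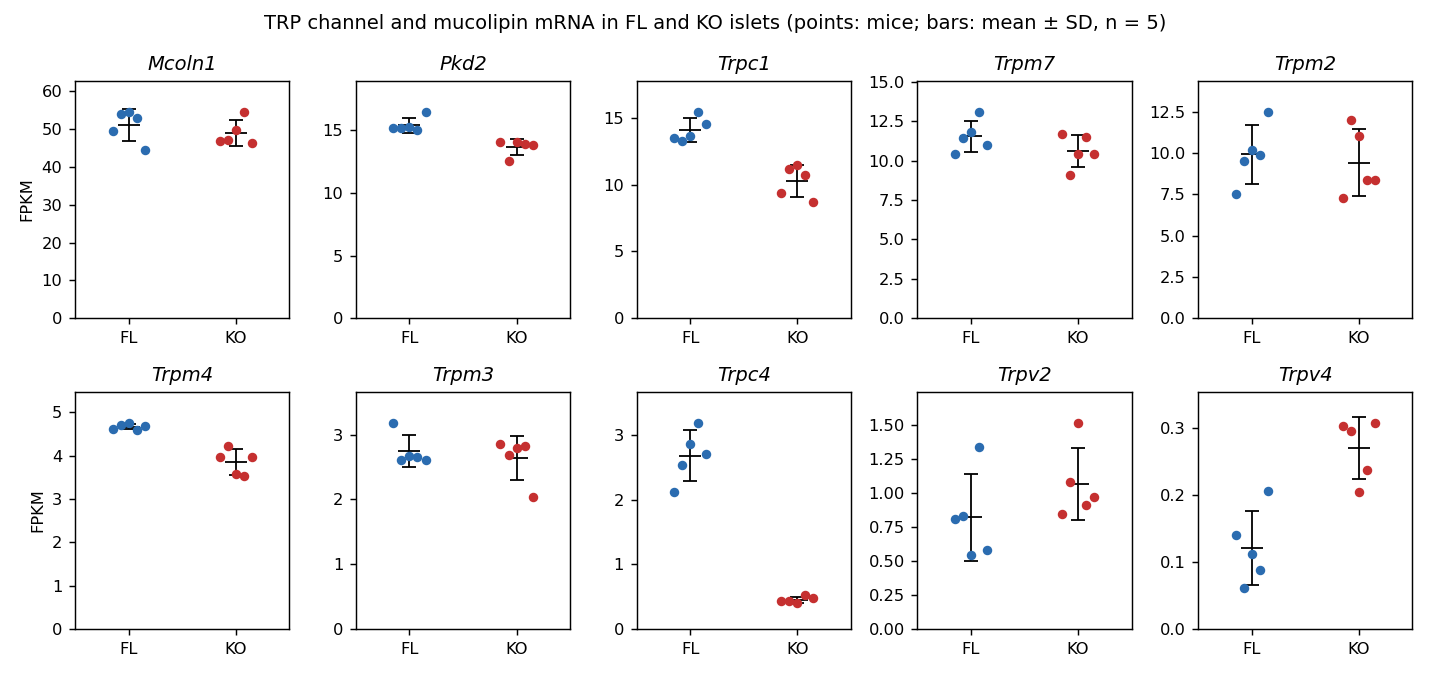
FPKM of the 10 genes in each mouse (points; y axes in FPKM from 0, with a different scale in each panel), with mean and SD of 5 FL and 5 KO mice. Trpc4 in KO mice, at 0.394 to 0.523 FPKM, lies far below FL mice, at 2.12 to 3.20 FPKM, while the groups of Mcoln1, Trpm2, Trpm3 and Trpm7 overlap.

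KO was compared with FL by limma on log2(FPKM + 1). The 13065 genes whose mean reached 1 FPKM in either group were tested, and a gene was called at a Benjamini-Hochberg adjusted p of at most 0.05. Of the 10 channels, 9 passed this filter. Trpv4 did not, Trpv2 passed through its KO mean alone and Trpc4 through its FL mean alone. Trpc4, Trpc1, Trpm4 and Pkd2 were called lower in KO islets, where 16.5% of all tested genes were called lower and 25.5% were called in either direction. For all 4 the KO mice lay below the FL mice without overlap, as they did for 12.5% of all tested genes, while 6.67% lay above without overlap, among them none of the 9 tested channels. None of the 9 was called higher by limma (9.05% of all tested genes were), and 0 of them was higher at an unadjusted p under 0.05. The median log2 fold change was −0.11 over the 9 channels and −0.06 over all tested genes. Of all called genes 64.5% were lower in KO, but 47.4% after median ratio rescaling of the libraries, 46.5% after upper quartile rescaling, 52.9% after quantile normalization and 52.4% after rescaling to the same sum. Trpc4, Trpc1 and Trpm4 kept their calls under all 4, and Pkd2 under none of them.

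**Figure D2:**
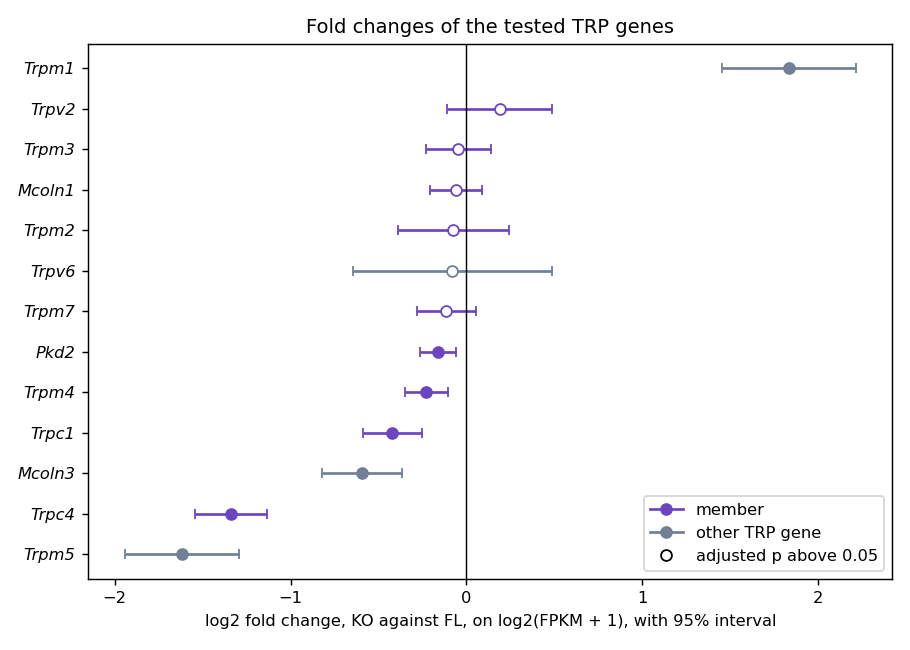
Log2 fold changes of KO against FL islets on the log2(FPKM + 1) scale with 95% intervals from limma, for the 9 tested members (purple) and the 4 other tested TRP genes (grey). Filled points have an adjusted p of at most 0.05. Trpc4 lies at −1.34 and Trpm5 at −1.62, while Trpm1 lies at 1.84.

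Trpc4 (ENSMUSG00000027748.11, chr3:54156035-54318471, plus strand of GRCm38, as are the gene positions that follow) encodes a receptor-operated cation channel that opens after Gq signalling and can join TRPC1 in one tetramer. It fell the most of the 10. In FL mice 1 to 5 it was at 2.12, 2.53, 2.86, 3.20 and 2.71 FPKM, and in KO mice 1 to 5 at 0.425, 0.426, 0.394, 0.523 and 0.478 FPKM. The KO mice lay close together and the lowest FL mouse was far above the highest of them. The mean fell from 2.68 ± 0.398 to 0.449 ± 0.051 FPKM (SD, n = 5), so FL islets held 5.97 times the Trpc4 mRNA of KO islets. The log2 fold change was −1.34 (SE 0.09, adjusted p = 2.93e-06 from limma), and on this scale the pseudocount of 1 FPKM shrinks the change of such a low gene. With a pseudocount of 0.1 FPKM it was −2.33 and with 0.01 FPKM −2.55. Among the 2150 genes called lower, it was the 24th by size of the fall. If all reads came from the longest annotated transcript, of 3473 nt, the values would correspond to about 164 to 505 reads in FL libraries and 46 to 76 reads in KO libraries.

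Trpc1 (ENSMUSG00000032839.13, chr9:95705082-95750375, minus strand) encodes the most widely expressed TRPC subunit, which reaches the membrane largely in tetramers with TRPC4 or TRPC5. It was at 13.5, 13.3, 13.7, 15.4 and 14.6 FPKM in FL mice 1 to 5. In KO mice 1 to 5 it was at 9.42, 11.2, 11.5, 10.7 and 8.69 FPKM. The groups did not overlap, and the spread within KO was the wider one. The mean fell from 14.1 ± 0.913 to 10.3 ± 1.20 FPKM (SD, n = 5), a fall by 26.9%, or −0.42 on the log2(FPKM + 1) scale (SE 0.08; limma, adjusted p = 0.00262). Thus both TRPC subunits among the 10 were lower in KO islets, and they were set against each other within each mouse.

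On the log2(FPKM + 1) scale, the level of Trpc4 minus that of Trpc1 was −2.04 ± 0.11 in FL mice and −2.96 ± 0.18 in KO mice (SD, n = 5). The KO value was −0.92 relative to FL. A two-sided exact permutation test gave p = 0.00794, the lowest value possible with 5 mice against 5 (0.0159 after Benjamini-Hochberg adjustment over 4 pairs of channels). The difference was −2.09 with a pseudocount of 0.01 FPKM. Trpc4 therefore changed more than Trpc1 within the same libraries, where the scaling of a library plays no part apart from the pseudocount.

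The windows from 250 bases before to 50 bases after the annotated start are shown for Trpc4 and Trpc1, as the TRPC genes that fell together, and for Mcoln1, as the most abundant channel and one whose groups overlap. They come from RefSeq on GRCm38.p6, where 9 of the 10 genes have a window, and are written 5′ to 3′ on the strand of the gene. The Trpc4 window is chr3:54155807-54156106 (plus strand), that of Trpc1 chr9:95750299-95750598 (minus strand) and that of Mcoln1 chr8:3500269-3500568 (plus strand).
Trpc4: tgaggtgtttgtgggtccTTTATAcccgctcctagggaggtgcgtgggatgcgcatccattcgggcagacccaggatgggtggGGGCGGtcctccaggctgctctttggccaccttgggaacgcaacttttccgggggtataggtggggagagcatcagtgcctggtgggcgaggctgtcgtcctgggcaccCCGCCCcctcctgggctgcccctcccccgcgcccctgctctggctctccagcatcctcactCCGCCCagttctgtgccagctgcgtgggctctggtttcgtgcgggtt
Trpc1: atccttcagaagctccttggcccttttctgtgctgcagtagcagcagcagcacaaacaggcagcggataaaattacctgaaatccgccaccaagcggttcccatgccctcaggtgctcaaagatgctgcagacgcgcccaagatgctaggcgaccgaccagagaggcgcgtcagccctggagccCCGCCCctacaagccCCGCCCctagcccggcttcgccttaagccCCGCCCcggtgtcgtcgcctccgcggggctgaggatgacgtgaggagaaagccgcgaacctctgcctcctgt
Mcoln1: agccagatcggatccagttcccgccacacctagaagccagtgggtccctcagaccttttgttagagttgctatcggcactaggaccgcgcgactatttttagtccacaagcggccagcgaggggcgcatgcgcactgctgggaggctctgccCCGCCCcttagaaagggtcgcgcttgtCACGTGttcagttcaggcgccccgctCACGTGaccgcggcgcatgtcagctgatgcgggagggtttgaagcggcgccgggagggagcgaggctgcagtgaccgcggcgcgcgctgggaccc
Capitals mark matches, on either strand, to the GC box GGGCGG (35.7% of 32851 windows of this length hold it), the TATA box TATAAA (13.6%), the CCAAT box CCAAT (37.4%) and the E-box CACGTG (7.15%). These motifs do not overlap one another in the windows printed. The Trpc4 window holds 3 GC boxes and 1 TATA box match on the opposite strand, near the upstream end, and the Trpc1 window 3 GC boxes. Neither is particular to the genes that fell. Among windows not printed, that of Trpv4, with a higher mean in KO, also holds 3 GC boxes. That of Trpm2, which was not called, also holds 1 TATA box match on the opposite strand. The window of Pkd2, which was called lower, holds none of these motifs. The Mcoln1 window holds 1 GC box and 2 E-boxes, and the Trpm7 window, not printed, also holds 2 E-boxes. The E-box was added to the search after the windows had been read. The 3 printed windows hold 16, 22 and 30 CpG dinucleotides in the order given, against a median of 7 over all windows. A match is a run of letters and no evidence that a factor binds there.

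Trpm4 (ENSMUSG00000038260.9, chr7:45302632-45333780, minus strand) encodes a Ca2+-activated channel for monovalent cations that depolarizes β cells as Ca2+ rises. It was at 4.62, 4.71, 4.76, 4.5997 and 4.68 FPKM in FL mice 1 to 5, the group with the lowest SD relative to its mean (1.42%) of the 10 genes. In KO mice 1 to 5 it was at 3.98, 4.22, 3.58, 3.53 and 3.96 FPKM, all below the FL mice. The mean fell by 17.5%, from 4.67 ± 0.066 to 3.85 ± 0.294 FPKM (SD, n = 5), and the log2 difference of −0.23 had an SE of 0.06 (limma, adjusted p = 0.0127).

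Trpm5, the closest relative of Trpm4 and likewise a Ca2+-activated monovalent channel, is not one of the 10 but in FL islets its FPKM was above the sum of the 10. It was at 211, 246, 237, 260 and 261 FPKM in FL mice 1 to 5 and at 75.1, 87.2, 112, 59.1 and 67.0 FPKM in KO mice 1 to 5. Its mean fell from 243 ± 20.6 to 80.1 ± 20.6 FPKM (SD, n = 5), which is −1.62 on the log2(FPKM + 1) scale (SE 0.15; limma, adjusted p = 2.48e-05). Exons of Tssc4 on the opposite strand overlap it, and the strand setting of the counting is not given in the sources used here. On the log2(FPKM + 1) scale the level of Trpm4 minus that of Trpm5 was −5.42 ± 0.13 in FL mice and −4.03 ± 0.36 in KO mice (SD, n = 5), a difference of 1.39 between the groups (exact permutation test, two-sided, p = 0.00794, adjusted 0.0159 over the 4 pairs). Trpm4 was thus less reduced than Trpm5.

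**Figure D3:**
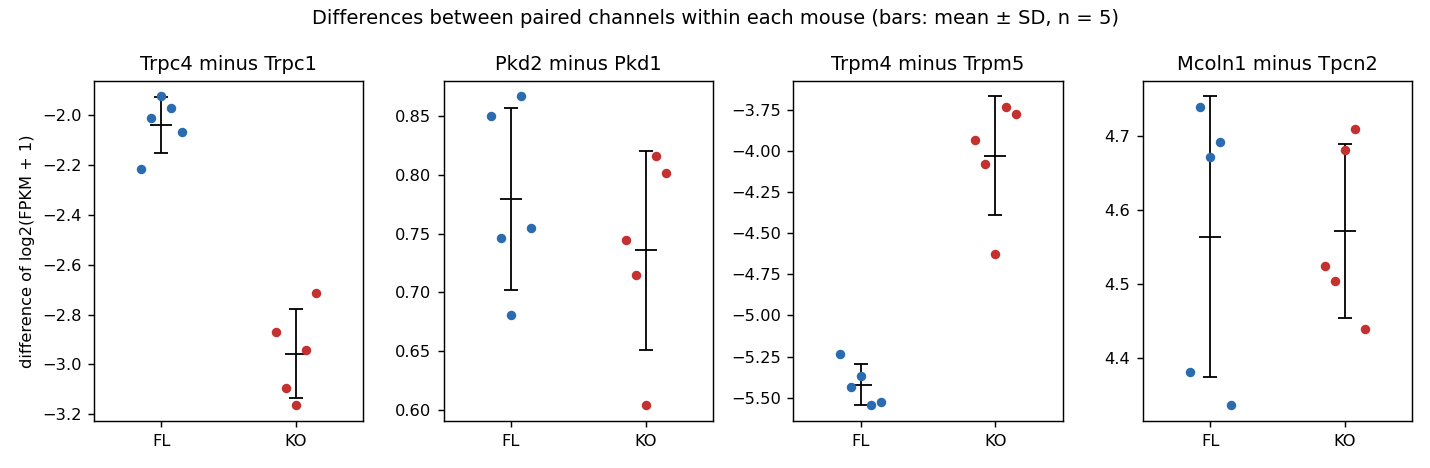
Difference of log2(FPKM + 1) between the 2 channels of a pair within each mouse (points; y axes do not start at 0 and differ between panels), with mean and SD of 5 FL and 5 KO mice. FL and KO mice do not overlap for Trpc4 minus Trpc1 and Trpm4 minus Trpm5, and overlap for Pkd2 minus Pkd1 and Mcoln1 minus Tpcn2.

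The other 3 TRPM channels were not called. Trpm2 (ENSMUSG00000009292.17, chr10:77907722-77970563, minus strand), a Ca2+-permeable channel opened by ADP-ribose and sensitive to oxidative stress, was at 7.53, 9.51, 10.2, 9.89 and 12.5 FPKM in FL mice 1 to 5. In KO mice 1 to 5 it was at 7.27, 12.0, 11.03, 8.38 and 8.38 FPKM. Both groups spread widely and cover the same range, so that the log2 fold change of −0.07 has a 95% interval from −0.39 to 0.24 (adjusted p = 0.746 from limma). Gm22394 and Gm22871 overlap its exons on the same strand. The sign of its change turned without FL mouse 5 (0.0068) or KO mouse 1 (0.0047).

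Trpm7 (ENSMUSG00000027365.14, chr2:126791565-126876230, minus strand), a channel for Mg2+, Zn2+ and Ca2+ fused to a protein kinase, was at 11.5 ± 0.998 FPKM for FL (10.5 to 13.1) against 10.6 ± 1.05 FPKM for KO (9.06 to 11.7; SD, n = 5). Its log2 fold change was −0.11 with a 95% interval from −0.28 to 0.05 (adjusted p = 0.303 from limma).

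Trpm3 (ENSMUSG00000052387.15, chr19:22139046-22995410, plus strand), a steroid- and heat-sensitive Ca2+ channel, was at 3.19, 2.61, 2.67, 2.66 and 2.61 FPKM in FL mice 1 to 5 and at 2.86, 2.69, 2.79, 2.82 and 2.03 FPKM in KO mice 1 to 5. FL mouse 1 was above the other FL mice and KO mouse 5 below all other mice. The log2 fold change of −0.05 has a 95% interval from −0.23 to 0.14 (adjusted p = 0.728 from limma), and its sign turned without KO mouse 5 (0.019). C330002G04Rik and Gm27151, on the opposite strand, overlap exons of Trpm3.

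The TRPV channels were the lowest of the 10 in FL islets, and of the 10 they alone had a higher mean in KO than in FL islets, although neither was called in this comparison. Trpv2 (ENSMUSG00000018507.16, chr11:62574486-62600515, plus strand), a channel of macrophages and other cells that answers to stretch and noxious heat, was at 0.807, 0.830, 0.541, 1.34 and 0.578 FPKM in FL mice 1 to 5. In KO mice 1 to 5 it was at 0.842, 1.08, 1.51, 0.912 and 0.972 FPKM. The groups overlap, as FL mouse 4 was above all KO mice but 1. The log2 fold change of 0.19 has a 95% interval from −0.11 to 0.49 (adjusted p = 0.340 from limma).

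Trpv4 (ENSMUSG00000014158.11, chr5:114622152-114658421, minus strand), an osmosensitive channel of endothelium, epithelium and other cells, was at 0.140, 0.061, 0.112, 0.088 and 0.205 FPKM in FL mice 1 to 5 and at 0.304, 0.295, 0.204, 0.238 and 0.308 FPKM in KO mice 1 to 5. Of the FL mice, only mouse 5 reached the range of KO mice. The mean was 0.121 ± 0.055 FPKM for FL against 0.270 ± 0.046 FPKM for KO (SD, n = 5), and the exact two-sided permutation test on log2(FPKM + 1) gave p = 0.0159 before any adjustment. At its longest transcript this is about 7 to 36 reads per FL library and 22 to 46 per KO library, with no adjusted p in the main comparison because the gene is under the filter. Without a filter, limma called it as higher in KO (adjusted p = 0.0127).

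Of the cell types other than β cells, markers of some were higher in KO islets, as were the means of the TRPV channels. Of 11 tested macrophage markers, 6 were called higher (9.05% of all tested genes were) and none lower, and the list had a summed FPKM of 164 to 199 in FL and 235 to 277 in KO. Of 12 endothelial markers, 5 were called higher (245 to 282 FPKM in FL, 272 to 364 in KO). Of 7 tested stellate and pericyte markers, all 7 were called higher (19.6 to 29.1 FPKM in FL, 37.0 to 47.7 in KO). None of the markers in these 3 lists is listed at 0 in all libraries. Of 2 tested Schwann cell markers 1 was called higher (5.64 to 10.06 FPKM in FL, 10.03 to 12.97 in KO), and the 2 PP cell markers were not called, with a median log2 fold change of 0.18. The remaining lists did not share this direction: of 9 tested acinar markers none was called, with a median log2 fold change of −0.37, of 5 tested duct markers 1 was called higher and 1 lower, and the 1 tested lymphocyte marker was called lower. Their part in the values of Trpv2 and Trpv4 was not tested.

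Pkd2 (ENSMUSG00000034462.9, chr5:104459450-104505819, plus strand) encodes polycystin-2, a cation channel of primary cilia and the ER. It was at 15.1, 15.2, 15.3, 14.98 and 16.5 FPKM in FL mice 1 to 5 and at 14.0, 12.5, 14.1, 13.9 and 13.8 FPKM in KO mice 1 to 5. The groups did not overlap, but they lay close together, with a mean of 15.4 ± 0.594 FPKM for FL against 13.7 ± 0.657 FPKM for KO (SD, n = 5), 11.3% lower in KO. The log2 fold change was −0.16 (SE 0.05, adjusted p = 0.0264 from limma). The adjusted p was between 0.0871 and 0.210 under the 4 rescalings of the libraries, and 0.0631 without FL mouse 5, so the call does not hold there. Its partner Pkd1, polycystin-1, had 8.57 ± 0.701 FPKM for FL against 7.82 ± 0.679 FPKM for KO (SD, n = 5; adjusted p = 0.232 from limma). The distance from Pkd2 to Pkd1 within a mouse differed by −0.04 between the groups (exact permutation test, two-sided, p = 0.397, adjusted 0.529 over the 4 pairs).

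Mcoln1 (ENSMUSG00000004567.16, chr8:3500457-3515232, plus strand) encodes mucolipin-1, a lysosomal channel opened by the phosphoinositide PI(3,5)P2, through which lysosomes release Ca2+. It was at 49.6, 54.1, 54.5, 53.0 and 44.4 FPKM in FL mice 1 to 5 and at 46.9, 47.3, 49.8, 54.5 and 46.3 FPKM in KO mice 1 to 5. The lowest of all 10 mice was an FL mouse, and the groups overlap over nearly their whole range. The log2 fold change of −0.06 has a 95% interval from −0.21 to 0.09 (adjusted p = 0.557 from limma), and it lay just above 0 under 3 of the 4 rescalings. Tpcn2, a lysosomal channel opened by the same lipid, had 1.20 ± 0.146 FPKM for FL against 1.10 ± 0.074 FPKM for KO (SD, n = 5; adjusted p = 0.582 from limma). The distance between them differed by 0.0075 (exact permutation test, two-sided, p = 0.944, adjusted 0.944 over the 4 pairs).

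**Figure D4:**
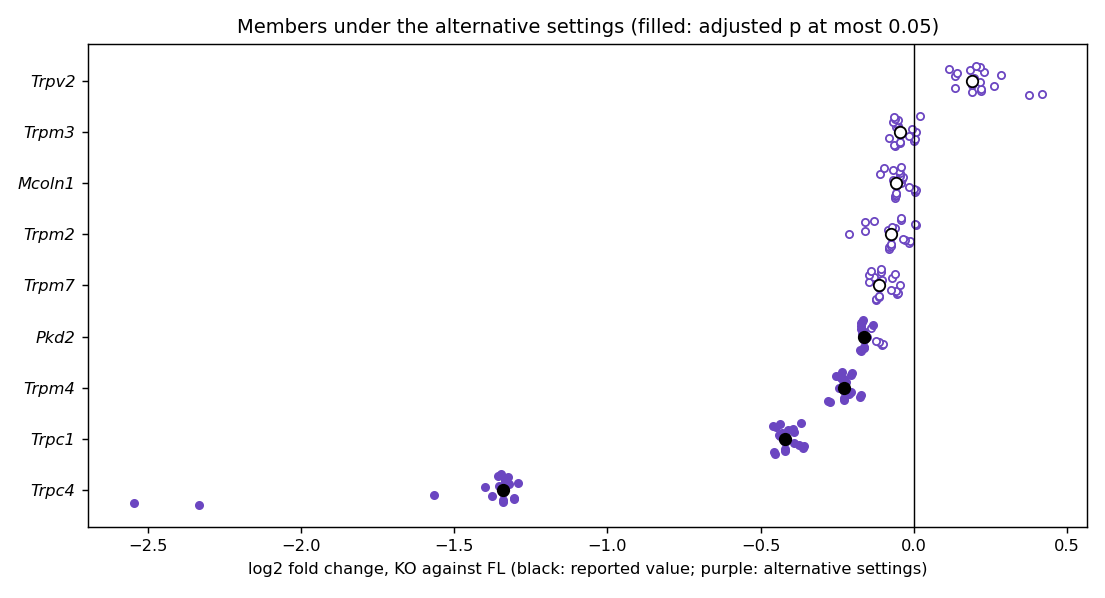
Log2 fold changes of the 9 tested members in the reported comparison (black) and under the 22 alternative settings (purple), filled where the adjusted p is at most 0.05; Trpv2 has 21 alternatives because it falls under the stricter filter. Trpc4 and Trpc1 are filled throughout, and the 2 points of Trpc4 furthest to the left, at −2.33 and −2.55, are those with smaller pseudocounts.

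The other 18 genes of the TRP superfamily were examined as a list. Of these, 14 had a mean under 1 FPKM in both groups, among them Trpc5, Trpc6, Trpc7, Trpa1, Trpv1 and Trpm8, and 1 of them, Pkd2l1, is listed at 0 in all libraries. Trpc7 had 0.203 ± 0.0505 FPKM for FL against 0.0970 ± 0.0472 FPKM for KO (SD, n = 5), and the groups overlap. Without a filter limma called Trpc7 lower (adjusted p = 0.0418). At its longest transcript these values are about 11 to 40 reads per FL library and 4 to 24 per KO library. Of the 4 tested, Trpm5 and Mcoln3 were called lower, Trpm1 was called higher and Trpv6 was not called (adjusted p = 0.851 from limma). Mcoln3, the mucolipin of endosomes, fell from 16.4 ± 1.17 to 10.6 ± 1.99 FPKM (SD, n = 5), and its log2 difference of −0.59 had an SE of 0.10 (limma, adjusted p = 0.00202). Trpm1, a channel best known from melanocytes and retinal bipolar cells, rose from 0.484 ± 0.149 to 4.45 ± 1.59 FPKM (SD, n = 5), which is 1.84 on the log2(FPKM + 1) scale (SE 0.17; limma, adjusted p = 3.05e-05). It was at 0.260, 0.415, 0.616, 0.520 and 0.608 FPKM in FL mice 1 to 5 and at 7.01, 4.86, 3.02, 3.35 and 3.996 FPKM in KO mice 1 to 5, so that the groups are wide apart. It passed the filter through its KO mean alone. Exons of a gene on the opposite strand overlap Trpm1 too. All 3 called genes had no overlap between the groups, and kept their direction and their calls under the 22 alternative settings. Over all tested genes 25.5% were called and 19.1% had no overlap, in either direction.

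Over all 28 TRP genes, the summed FPKM was 376 ± 24.0 for FL mice against 199.6 ± 23.5 for KO mice (SD, n = 5). Trpm5 made up 64.6% of that sum in FL islets and 39.6% in KO islets, as means over 5 mice. The share ran from 62.6% to 66.8% over FL mice and from 32.4% to 47.2% over KO mice, without overlap.

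**Figure D5:**
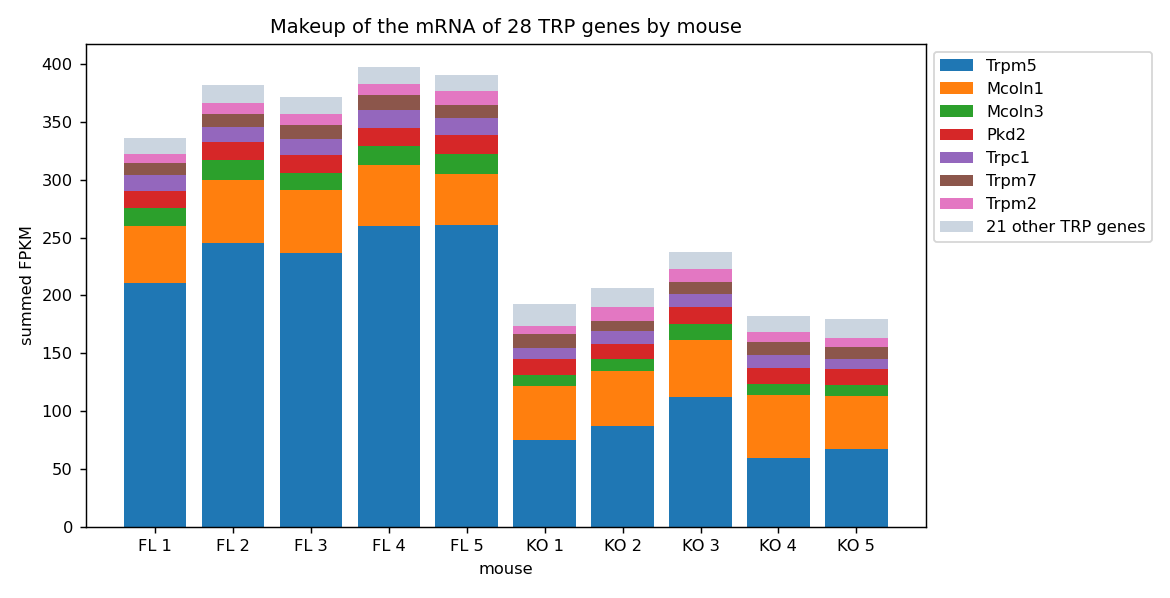
Summed FPKM of 28 TRP genes in each of the 10 mice (y axis in FPKM from 0), stacked by gene, with Trpm5, Mcoln1, Mcoln3, Pkd2, Trpc1, Trpm7 and Trpm2 drawn apart and the rest together. The sum is 336 to 398 FPKM in FL mice and 180 to 237 FPKM in KO mice, and the Trpm5 layer shrinks while that of Mcoln1 stays of similar height.

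Genes that act with these channels were examined in lists, whose counts are given without a test of the list and stand beside 16.5% called lower and 9.05% called higher over all tested genes. Among 8 tested genes of Gq and phospholipase C signalling, upstream of TRPC channels, 3 were called lower and none higher (median log2 fold change −0.12). They were Plcg2, a phospholipase C that fell from 5.42 ± 0.335 to 3.97 ± 0.238 FPKM, Gna11, a Gq family subunit that fell from 67.5 ± 2.23 to 59.4 ± 2.36 FPKM, and Plcb4, a phospholipase C that fell from 19.6 ± 2.05 to 16.05 ± 1.38 FPKM (SD, n = 5). The call of Plcb4 was lost under 10 of the 22 alternative settings. Of the 6 genes of this list under the filter, Gna14, a Gq family subunit, had 0.32 ± 0.121 FPKM for FL against 0.933 ± 0.0799 FPKM for KO (SD, n = 5), without overlap, and without a filter limma called it higher (adjusted p = 0.000438). It was singled out after its values were seen. Of 5 store entry genes, 2 were called lower: Stim1, the ER Ca2+ sensor (41.1 ± 2.11 to 33.0 ± 2.08 FPKM), and the pore subunit Orai3 (27.2 ± 1.24 to 23.9 ± 0.954 FPKM; SD, n = 5). The call of Orai3 was lost with rescaling to the same sum (limma, adjusted p = 0.0565).

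Of 18 regulators and scaffolds of TRP channels, 5 were called lower and none higher. The largest falls were in the IP3 receptors Itpr2, from 10.3 ± 1.24 to 4.83 ± 0.966 FPKM, and Itpr3, from 24.4 ± 1.25 to 13.8 ± 1.16 FPKM (SD, n = 5), both channels that release Ca2+ from the ER. The others were Fkbp4, a co-chaperone (log2 fold change −0.23), Camk2b, a calmodulin-dependent kinase (−0.24), and Pacsin1, a membrane-bending adaptor (−0.31). The call of Pacsin1 was lost under 9 of the 22 alternative settings. Of 5 enzymes of ADP-ribose and cyclic ADP-ribose, the ligands around TRPM2, Nudt9, an ADP-ribose hydrolase whose domain TRPM2 shares, rose from 27.1 ± 1.85 to 38.1 ± 5.25 FPKM (SD, n = 5; log2 fold change 0.47, adjusted p = 0.00331 from limma) and the other 4 were not called. Of 5 genes for two-pore channels and PI(3,5)P2 synthesis, Vac14, a scaffold of the kinase complex, was called lower at an adjusted p of 0.0489 from limma, a call lost under 19 of the 22 alternative settings. Of a list of polycystin-1 and related genes, the 2 tested, Pkd1 and Pkhd1, were not called by limma. Nor were the 3 TFEB family genes, transcription factors of lysosomal genes.

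Markers of β cells moved with the falls of Trpc4, Trpc1, Trpm4 and Trpm5, and over all tested genes 16.5% were called lower. Of 10 tested β cell markers, a list that holds Trpm5 itself, 7 were called lower and 0 higher. Their log2 fold changes had a median of −0.55, and the list had a summed FPKM of 3279 to 4050 in FL and 2135 to 3080 in KO. Of the α cell markers, 3 of 7 tested were called lower (457 to 678 FPKM in FL, 307 to 446 in KO), while of the δ cell markers 1 of 4 was called lower (4961 to 5853 FPKM in FL, 3993 to 5340 in KO), a share near that over all tested genes. Their part in the falls of the channels was not tested.

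Over the 10 libraries, the genes whose profiles of log2(FPKM + 1), centred on the mean of the gene, lay closest to Trpc4 among 13064 other tested genes were 1500009L16Rik (root mean square distance 0.12), Cntn1 (0.13), Kcnj12 (0.13), Insrr (0.15) and Rasd2 (0.15). Cntn1, which encodes the cell adhesion protein contactin-1, went from 16.1 ± 1.42 to 6.15 ± 0.771 FPKM, and Kcnj12, which encodes an inward rectifier potassium channel, from 18.01 ± 1.89 to 6.32 ± 0.971 FPKM (SD, n = 5). Their log2 fold changes, from −1.42 to −1.17, follow from this choice, since the difference between FL and KO is part of the profile compared.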

How the data were processed

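The authors sequenced stranded poly(A) libraries of islet RNA from a single end over 75 nt, 1 per mouse, and deposited 1 table of FPKM, which they describe as normalized; the submitters' processing notes list STAR 2.5.2a, Cuffnorm 2.2.1 and the builds mm10 and GRCm38. The annotation, the scaling of libraries and the strand setting are not given in the sources used here. FPKM hold no read counts, so no counting error is given. Read numbers in the text are estimates from the step of 1 read in genes with 1 transcript of 3000 to 10000 nt, and their number limits the precision of low genes.

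Coordinates are from GENCODE release M21 (GRCm38), which held the identifiers of 46841 of 47340 genes without their version, and 38723 with it. limma 3.58.1 in R 4.3.3 (lmFit, eBayes with a trend, no covariate) was run on log2(FPKM + 1) for genes whose FL or KO mean reached 1 FPKM, with Benjamini-Hochberg adjustment over all of them. Differences within pairs of channels were tested with exact permutation tests over mice. The limma p-values set the difference between the groups against the spread between these mice, moderated by a trend over all tested genes. Those of the permutation tests give the share of regroupings of these mice with a difference at least as large. All 10 members are named. Of other lists up to 5 called genes by adjusted p are named, as are the genes of the pairs, Fitm2 and the 5 genes most like the member with the largest change. Gna14, Trpc7 and Trpv6 are named with values outside this rule. Members and lists were chosen with earlier results of these data known. In simulated data of 13065 genes, 97% of genes given a log2 change of 1 were called, 79% of those given 0.5, and 14 unchanged genes. The noise was normal and independent between genes. Changes were given to 200 genes only, all with a mean above 2 FPKM over the 10 libraries, so these rates do not cover lower genes. Other steps used numpy 2.4.6 under Python 3.11.15.

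The replicate numbers come from the titles, and no source used here says that they pair FL with KO mice. The alternatives were pseudocounts of 0.1 and 0.01 FPKM, no filter, a stricter filter at 2 FPKM, 4 rescalings, limma without trend, robust or with sample weights, the replicate number as a block, and each mouse left out in turn.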

Additional observations from a re-analysis of the deposited data

Results flagged for a closer look

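The 33 genes named under the rule above gave 66 sets of 5 mice. Gna14, Trpc7 and Trpv6 were not among these 33 genes. In 4 of the 66 sets, where chance gives about 3.3, 1 mouse was apart from the others by more than 0.71 of the range. All 4 belong to 2 of the channels. For Trpm3, FL mouse 1 was at 3.19 FPKM and the others at 2.61 to 2.67 FPKM (a gap of 0.883 of the range), and KO mouse 5 was at 2.03 FPKM and the others at 2.69 to 2.86 FPKM (0.794). For Pkd2, FL mouse 5 was at 16.5 FPKM and the others at 14.98 to 15.3 FPKM (0.809), and KO mouse 2 was at 12.5 FPKM and the others at 13.8 to 14.1 FPKM (0.807).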

How the results depend on the processing

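Over the 22 alternative settings, Trpc4 and Trpc1 were called lower in each, with log2 fold changes from −2.55 to −1.29 and from −0.46 to −0.36. The total of called genes went from 2368 with the replicate number as a block to 4273 with sample weights. With the replicate block 2 of the 10 channels were called lower, since Trpm4 (adjusted p = 0.0521 from limma) and Pkd2 (0.0749) were lost, and of the partner genes named also Gna11 (0.0511), Vac14 (0.0934) and Pacsin1 (0.0712). The numbers were not treated as pairs, because mice with the same number did not deviate together (correlations from −0.10 to 0.0030 over the 5 numbers, and no FL mouse was most like the KO mouse of its number). With pairing by replicate number, Trpc4 minus Trpc1 (−0.92) and Trpm4 minus Trpm5 (1.39) had p = 0.0625 in an exact sign permutation test, the smallest that 5 pairs allow. Without a filter 1 channel, Trpv4, was called higher. With upper quartile rescaling the sum over the 10 channels differed by −6.23% in KO. Signs turned only for values close to 0: Trpm3 with upper quartile rescaling (0.0024) or sample weights (0.0056) and, with 1 mouse left out, between −0.068 and 0.019; Trpm2 with 1 mouse left out, between −0.16 and 0.0068; Mcoln1 with median ratio (0.0025), upper quartile (0.0060) and quantile (0.00030) rescaling; and Mcoln1 minus Tpcn2 with 1 mouse left out, between −0.049 and 0.051. The cause of these shifts was not tested. Depth limits Trpv4, Trpv2 and, in KO, Trpc4, which rest on few reads per library, and the table holds no counts that would give their counting error.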
